A study of Homo sapiens with 4 samples.

Results

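The proteasome genes described here are the protein-coding genes whose symbol begins with PSM, followed by a letter from A to G and a number, together with POMP and NFE2L1. The rule gave 50 of the 35993 genes in the deposited table, and 48 of them had 10 or more counts in the mean of the libraries. In all, 16599 genes passed that minimum. The other 2, PSMA8, a testis form of an alpha subunit, and PSMB11, a thymus form of a beta subunit, were listed at 0 counts in all 4 libraries. The lowest of the measured genes was PSMB9, with a mean count of 474, so the minimum itself excluded no gene with reads.

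RNA was sequenced from MDA-MB-231, a line of human breast cancer cells with a mesenchymal appearance, as 4 libraries with 1 library per condition. Cells received a control siRNA (siControl) or an siRNA against CTGF (siCTGF), and each was left untreated or given 50 µM kahweol, a diterpene from coffee, for 48 h in serum-free medium. Kahweol was dissolved in DMSO, and no vehicle is named for the untreated cells, so the effects of kahweol and of its solvent cannot be told apart. Each siRNA arm was 1 reagent in 1 cell line, and no condition had a replicate.

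The total count per library ran from 44781516 to 59129784. The mesenchymal marker VIM stood at 2082 to 2819 TPM (the authors' library-scaled transcript level, adjusted for gene length), and ESR1 and PGR were at 0.0928 TPM at most. The epithelial markers KRT8 (273 to 414 TPM) and EPCAM (23.2 to 39.0 TPM) were present, while the summed fibroblast, leukocyte and endothelial markers each stayed under 3 TPM. CTGF (CCN2) was at 159 CPM (counts scaled to library size with TMM) in untreated siControl cells and 63.6 CPM in untreated siCTGF cells. Under kahweol it was at 186 and 31.8 CPM. In bulk RNA, fewer cells making a transcript and less transcript per cell cannot be told apart.

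The proteasome degrades proteins that carry ubiquitin chains. Its 20S core is a barrel of alpha rings, which gate the entrance, and beta rings, which hold the proteolytic sites. The 19S cap recognizes ubiquitin and unfolds the substrate with a ring of ATPases, other activators (PSME1 to PSME4) can take the place of the cap, and dedicated chaperones assemble the particle. Interferon replaces the catalytic beta subunits with the inducible forms PSMB8, PSMB9 and PSMB10, which gives the immunoproteasome that makes peptides for antigen presentation. When proteasome activity is limiting, the transcription factor NFE2L1 is processed into an active form that raises transcription of many of these genes.

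Changes are given as log2 fold changes between single libraries on TMM-scaled counts. Each carries a 95% counting interval, which covers counting error only and leaves out the variation between cultures. A fit over all 4 libraries with terms for kahweol and siRNA, tested with edgeR's quasi-likelihood test, gave the adjusted p-values (Benjamini-Hochberg over 16599 genes). That fit sets 2 libraries against 2, leaves 1 residual degree of freedom and counts as noise any way in which the 2 treatments modify each other. The words rose and fell are used below only for genes whose adjusted p was under 0.05.

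To examine the response of the proteasome to kahweol, kahweol-treated cells were compared with untreated cells in each siRNA arm. Most genes of the 19S cap and of the constitutive beta subunits rose, and the 3 inducible beta subunits and 3 of the 5 assembly factors of the 20S core fell. In siControl cells, 20 of the 48 proteasome genes passed a fold of 1.3, against 28.1% of all genes measured. A further 4 were under a fold of 0.7, against 26.3% of all genes. In siCTGF cells 15 were over 1.3, against 28.4% of all genes, and 4 were under 0.7, against 24.2%. The comparisons share no library, and 15 genes were over 1.3 in both (20.7% of all genes were) and 4 were under 0.7 in both (18.2% of all genes).

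The fit over all libraries called 25 of the 48 genes higher with kahweol, against 22.9% of all genes, and 6 lower, against 23.7% of all genes. The genes that rose were POMP, PSMA3, PSMA6, PSMA7, PSMB1, PSMB2, PSMB3, PSMB5, PSMB6, PSMB7, PSMC1, PSMC2, PSMC4, PSMC5, PSMC6, PSMD1, PSMD2, PSMD3, PSMD4, PSMD6, PSMD8, PSMD11, PSMD12, PSMD14 and PSME4. The genes that fell were PSMB8, PSMB9, PSMB10, PSMG1, PSMG3 and PSMG4. The remaining 17 passed in neither direction.

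The median log2 fold change of the 48 genes was 0.29 in siControl cells, against -0.02 over all genes, and 0.21 in siCTGF cells, against 0.00 over all genes. The spread among the proteasome genes was narrower than among all genes, with an SD of 0.49 against 0.98 in siControl cells and 0.46 against 0.93 in siCTGF cells. Many genes of the whole table are thinly covered. Among the 9916 genes with a mean count at least that of PSMB9, the SD was 0.66 in siControl and 0.65 in siCTGF cells, and 2711 were over 1.3 and 1832 under 0.7 in siControl cells.

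These directions depend in part on the scaling of the libraries. With TPM, the median of all genes moved to -0.17 in siControl cells and -0.18 in siCTGF cells, and with total-count CPM to -0.15 in both. On the log2(TPM + 1) scale, 10 proteasome genes were over 1.3 and 7 under 0.7 in siControl cells, and 6 were over and 7 under in siCTGF cells. On that scale the median of the 48 genes was 0.06 in siControl cells and -0.05 in siCTGF cells, which is 0.23 and 0.13 above the median of all genes. Relative to that median, the distance was 0.31 and 0.21 with TMM. Of the 25 genes that rose, 22 had a positive change in both siRNA arms under every scaling and filter tried. PSMB1, PSMB3 and PSMB5 were the exceptions, with a change below 0 under at least 1 scaling, but they stayed above the median of all genes under every one. All 6 genes that fell had a negative change under each of them. Total-count CPM and TPM lower the median of all genes, which favours negative changes. How many of all genes kept their sign in this way was not counted.

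**Figure D1:**
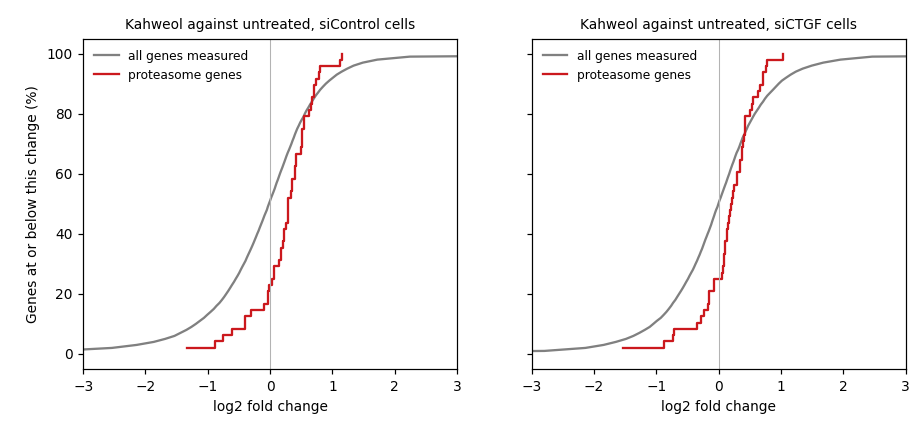
Cumulative share of genes (vertical axis, %) at or below each log2 fold change with kahweol (horizontal axis), for the 48 measured proteasome genes (red) and all 16599 genes (grey), in siControl (left) and siCTGF cells (right). The red curve crosses 50% at 0.29 and 0.21, where the grey curve crosses near 0, and it ends at 1.15 and 1.04, while the grey curve runs on.

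The promoters of the 3 genes with the highest and the 3 with the lowest change in both siRNA arms, among those with a promoter in the RefSeq table (GRCh38.p14), are printed here to show the start-site region of the extremes. Each runs from 250 bases before to 50 bases after the annotated start, 5′ to 3′ on the gene's strand. Capitals mark each match, on either strand, of the antioxidant response element core TGANNNNGC, of the interferon regulatory factor element GAAANNGAAA or of the CCAAT box. PSMC6, PSMC4 and PSME4 had the highest changes.
PSMC6 promoter: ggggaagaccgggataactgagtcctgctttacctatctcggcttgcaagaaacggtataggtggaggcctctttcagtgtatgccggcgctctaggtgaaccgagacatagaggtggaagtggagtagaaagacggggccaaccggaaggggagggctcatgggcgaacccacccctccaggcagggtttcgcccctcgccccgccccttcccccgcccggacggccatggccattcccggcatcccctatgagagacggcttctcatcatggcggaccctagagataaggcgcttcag
PSMC4 promoter: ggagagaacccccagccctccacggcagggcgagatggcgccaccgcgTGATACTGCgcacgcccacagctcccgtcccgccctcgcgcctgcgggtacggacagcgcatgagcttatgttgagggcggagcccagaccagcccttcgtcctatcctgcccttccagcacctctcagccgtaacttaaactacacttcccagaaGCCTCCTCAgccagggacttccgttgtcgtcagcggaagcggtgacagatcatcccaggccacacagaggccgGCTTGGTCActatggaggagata
PSME4 promoter: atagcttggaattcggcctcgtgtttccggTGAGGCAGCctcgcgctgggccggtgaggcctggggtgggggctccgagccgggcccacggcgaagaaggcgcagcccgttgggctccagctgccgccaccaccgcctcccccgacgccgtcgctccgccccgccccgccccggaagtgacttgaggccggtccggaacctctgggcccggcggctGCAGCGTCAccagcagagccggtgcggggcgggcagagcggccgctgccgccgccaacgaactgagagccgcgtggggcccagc
PSMG4, PSMB10 and PSMB9 had the lowest changes among the genes in that table.
PSMG4 promoter: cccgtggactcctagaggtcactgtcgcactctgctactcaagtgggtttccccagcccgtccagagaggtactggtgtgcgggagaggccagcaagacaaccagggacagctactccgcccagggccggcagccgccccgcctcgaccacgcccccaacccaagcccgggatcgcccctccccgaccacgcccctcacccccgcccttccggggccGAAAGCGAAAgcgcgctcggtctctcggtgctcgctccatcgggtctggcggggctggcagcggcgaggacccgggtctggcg
PSMB10 promoter: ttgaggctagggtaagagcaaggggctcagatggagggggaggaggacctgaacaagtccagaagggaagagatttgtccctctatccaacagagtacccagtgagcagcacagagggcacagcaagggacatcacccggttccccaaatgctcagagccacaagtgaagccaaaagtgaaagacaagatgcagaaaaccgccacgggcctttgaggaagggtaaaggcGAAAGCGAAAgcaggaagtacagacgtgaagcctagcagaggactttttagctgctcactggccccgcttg
PSMB9 promoter: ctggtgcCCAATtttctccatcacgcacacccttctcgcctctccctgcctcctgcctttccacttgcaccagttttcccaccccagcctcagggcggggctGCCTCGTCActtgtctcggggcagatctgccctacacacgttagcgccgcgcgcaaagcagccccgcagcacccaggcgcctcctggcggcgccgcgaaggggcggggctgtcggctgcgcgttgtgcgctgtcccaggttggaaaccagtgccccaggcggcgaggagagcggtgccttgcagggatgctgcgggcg

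In GRCh38.p14 these windows lie at chr14:52706950-52707249 (PSMC6, plus strand), chr19:39970915-39971214 (PSMC4, plus strand), chr2:53970944-53971243 (PSME4, minus strand), chr6:3258697-3258996 (PSMG4, plus strand), chr16:67936801-67937100 (PSMB10, minus strand) and chr6:32853942-32854241 (PSMB9, plus strand). PSMG4 and PSMB10 carried the same 10 letters, GAAAGCGAAA, on the gene's strand, with the first base at -33 in PSMG4 and -21 in PSMB10. PSMC4 held 3 matches of TGANNNNGC and PSME4 held 2. PSMB9, among the lowest, also held 1 match of TGANNNNGC (first base at -148) and 1 CCAAT box (-243), and it held 0 of GAAANNGAAA. The PSMC6 window held none of the 3 motifs in capitals.

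In all, 5 motifs were searched in the promoters of the 42 measured genes that had one in the table (a gene counts if any of its listed starts holds the motif). PSMA7, PSMB1, PSMB6, PSMB7, PSMD4 and PSMG3 had no entry. Both strands were read, and TGACTCA can lie within a match of TGANNNNGC. GAAANNGAAA was found in 7 of the 42 (16.7%), against 4.38% of the 27305 genes in the table. The 7 were PSMA4, PSMB4, PSMB8, PSMB10, PSME1, PSME2 and PSMG4, of which 3 were among the 5 genes that fell and had a promoter, and none was among the 20 that rose. TGANNNNGC was found in 26 (61.9%, against 47.1% of all genes), namely in 13 of the 20 genes that rose, 3 of the 5 that fell and 10 of the 17 others. CCAAT was in 20 genes (47.6%, against 39.7%). The E-box CACGTG and the AP-1 site TGACTCA were each in 3 (7.14%), against 8.77% and 6.05% of all genes. A match of letters is a description of the sequence and not evidence of binding.

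All 7 measured alpha subunits of the 20S core had a positive change with kahweol on TMM-scaled counts in both arms, but with TPM the change was below 0 for 2 of the 7 in siControl cells and 4 of the 7 in siCTGF cells. On the TPM scale, 6 of the 7 lay above the median of all genes in siControl cells and 5 of the 7 in siCTGF cells. Their median log2 fold change was 0.34 in siControl cells and 0.13 in siCTGF cells. PSMA3, PSMA6 and PSMA7 rose. PSMA3 ran from 299 to 369 TPM over the libraries, with changes of 0.52 and 0.37, and PSMA6 from 244 to 279 TPM, with 0.35 and 0.19. PSMA3 overlaps the opposite-strand PSMA3-AS1, which had 16.3% of its count. PSMA7 was the most abundant proteasome transcript and stood at 754 TPM in untreated siControl cells, 860 with kahweol, 757 in untreated siCTGF cells and 836 with kahweol. Its level was thus higher in both treated libraries than in both untreated ones, though how many of all genes separate in this way was not counted. The log2 fold change of PSMA7 was 0.42 (interval 0.38 to 0.46) in siControl cells and 0.40 (0.37 to 0.44) in siCTGF cells. PSMA5 was at 76.8, 77.2, 86.4 and 74.4 TPM in the same order, with log2 changes of 0.23 and 0.05 (adjusted p = 0.21).

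PSMA4 was the member whose TPM and counts went apart. It was listed at 154, 135, 277 and 143 TPM in untreated siControl, kahweol siControl, untreated siCTGF and kahweol siCTGF cells, while its counts were 10674, 8785, 10484 and 9029. The high level in untreated siCTGF cells was thus not present in its counts, whose log2 fold change with siCTGF was 0.18 in untreated cells. Relative to the median gene of each library, the ratio of TPM to CPM of PSMA4 differed by 1.91 times between libraries. That ratio also differed by 1.59 times for PSMG4 and by at most 1.13 times for every other member.

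All 7 constitutive beta subunits had a positive change on TMM-scaled counts in both arms, and with TPM the change was below 0 for 1 of them in siControl cells and 4 in siCTGF cells. All 7 lay above the median of all genes on the TPM scale in both arms. Of the 7, 6 rose (PSMB1, PSMB2, PSMB3, PSMB5, PSMB6 and PSMB7), and PSMB4 did not pass (adjusted p = 0.15). PSMB4 was at 493 and 464 TPM in siControl cells and 515 and 469 TPM in siCTGF cells. PSMB1 ran from 596 to 644 TPM over the libraries, with changes of 0.28 and 0.16, and PSMB3 from 474 to 540 TPM, with 0.35 and 0.24. PSMB7, which carries the trypsin-like activity, had the largest change in both arms together. Its level was 442 TPM in untreated siControl cells and 613 with kahweol, and 422 TPM in untreated siCTGF cells and 556 with kahweol. The treated libraries did not overlap the untreated ones, though how many of all genes separate in this way was not counted. The log2 fold change of PSMB7 was 0.70 (interval 0.65 to 0.75) in siControl cells and 0.66 (0.61 to 0.71) in siCTGF cells (adjusted p = 0.00022).

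PSMB6, the caspase-like subunit, was at 361 TPM in untreated and 446 in kahweol-treated siControl cells, and at 363 and 412 TPM in siCTGF cells. Its log2 fold changes were 0.54 and 0.43. PSMB5, the chymotrypsin-like subunit and the main target of proteasome inhibitor drugs, was at 314 and 327 TPM in siControl cells and 296 and 283 TPM in siCTGF cells. It was the least changed of the 3 catalytic subunits on counts, with 0.28 and 0.21 (adjusted p = 0.030), and its TPM overlapped between treated and untreated libraries. PSMB2, a beta subunit without catalytic activity, had the lowest level of the constitutive core at 33.7 to 46.7 TPM and a log2 fold change of 0.70 in siControl cells and 0.42 in siCTGF cells.

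The 3 inducible beta subunits fell, while their constitutive partners rose on counts (on TPM, PSMB5 did not in siCTGF cells). PSMB8 was at 76.5 TPM in untreated siControl cells, 53.2 with kahweol, 81.5 in untreated siCTGF cells and 57.5 with kahweol. PSMB9 was at 23.7, 13.2, 20.2 and 10.1 TPM in the same order. PSMB10 was at 64.5, 32.6, 58.9 and 29.9 TPM. For all 3, both treated libraries lay below both untreated ones, and the same held on TMM-scaled CPM. On TPM the median change of all genes with kahweol was itself -0.17 in siControl and -0.18 in siCTGF cells. How many of all genes separate in this way was not counted, for these genes or for PSMA7, PSMB7, PSMG3 and PSMG4.

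PSMB10, the partner of PSMB7, had a log2 fold change of -0.76 (interval -0.93 to -0.59) in siControl cells and -0.71 (-0.89 to -0.54) in siCTGF cells, with an adjusted p of 0.00086. PSMB9, the partner of PSMB6, had -0.61 (-0.89 to -0.35) and -0.74 (-1.04 to -0.44) at an adjusted p of 0.010. PSMB8, the partner of PSMB5, had -0.31 and -0.23, with an adjusted p of 0.035, and it did not pass with DESeq2 or with a fit that had no siRNA term. PSMB8 and PSMB9 lie close together in the major histocompatibility complex, at chr6:32808494-32812456 and chr6:32821969-32827628 (GRCh37, the build of the deposited files), and PSMB10 lies at chr16:67968409-67970753.

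The inducible member's share of each catalytic pair, taken on TPM within a library and so free of the scaling between libraries, was lower with kahweol in both arms. PSMB10 made up 12.7% of the PSMB7 and PSMB10 total in untreated siControl cells and 5.04% with kahweol, and 12.3% and 5.11% in siCTGF cells. PSMB9 made up 6.14% of the PSMB6 and PSMB9 total in untreated siControl cells and 2.87% with kahweol, and 5.28% and 2.40% in siCTGF cells. PSMB8 made up 19.6% of the PSMB5 and PSMB8 total in untreated siControl cells and 14.0% with kahweol, and 21.6% and 16.9% in siCTGF cells. The constitutive form was the more abundant in every library.

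**Figure D2:**
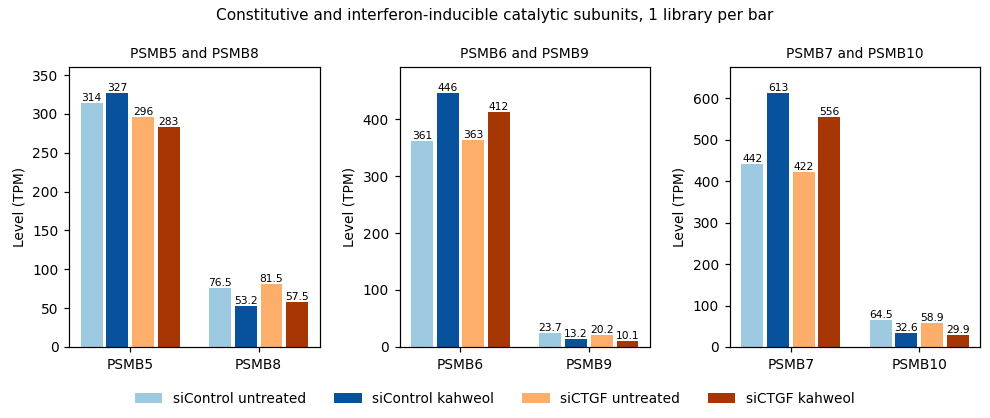
Levels (vertical axis, TPM from 0) of the constitutive catalytic subunits PSMB5, PSMB6 and PSMB7 beside the interferon-inducible PSMB8, PSMB9 and PSMB10, with 1 bar for each of the 4 libraries and therefore no error bar. Both kahweol bars of each inducible subunit are lower than both untreated bars, while those of PSMB6 and PSMB7 are higher.

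The ATPase ring of the 19S cap showed the highest group median, with a log2 fold change of 0.66 in siControl cells and 0.63 in siCTGF cells. Of its 6 genes, 5 rose (PSMC1, PSMC2, PSMC4, PSMC5 and PSMC6), and these 5 were over a fold of 1.3 in both arms. PSMC6 had the largest increase of all proteasome genes in both arms. It was at 74.4 TPM in untreated siControl cells and 158 with kahweol, and at 93.7 and 157 TPM in siCTGF cells. Its log2 fold change was 1.15 (interval 1.09 to 1.22) in siControl cells and 1.04 (0.97 to 1.10) in siCTGF cells, with a fitted value of 1.10 (SE 0.08) and an adjusted p of 7.4e-05.

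PSMC4 was at 159 and 233 TPM in siControl cells and at 152 and 216 TPM in siCTGF cells. Its log2 fold changes were 0.79 and 0.77. PSMC1 ran from 127 to 185 TPM, with changes of 0.68 and 0.71, PSMC2 from 112 to 166 TPM, with 0.63 and 0.54, and PSMC5 from 95.1 to 118 TPM, with 0.55 and 0.39. PSMC3 stood apart from the other ATPases, at 268 TPM in untreated and 223 in kahweol-treated siControl cells and 278 and 257 TPM in siCTGF cells. Its log2 fold changes on counts were -0.04 (interval -0.09 to 0.02) and 0.15 (0.10 to 0.20) at an adjusted p of 0.60. The counts of PSMC5 and PSMC1 are less certain, since the strand setting of the counting is not stated. PSMC5 overlaps the opposite-strand gene FTSJ3 by 233 bases, and FTSJ3 had 185% of its count. PSMC1 overlaps NRDE2, which had 11.7% of its count, and its pseudogene PSMC1P1 had 5.76%.

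Among the 11 non-ATPase subunits of the 19S cap, 9 rose, and the group median log2 fold change was 0.42 in siControl cells and 0.38 in siCTGF cells. PSMD12, a subunit of the lid, was at 63.2 and 93.7 TPM in siControl cells and 64.3 and 83.3 TPM in siCTGF cells, and its log2 fold changes were 0.80 (interval 0.74 to 0.86) and 0.64 (0.57 to 0.70). The highest value of the group was that of PSMD12 in siControl cells and that of PSMD3 in siCTGF cells. PSMD11, another lid subunit, ran from 72.7 to 103 TPM over the libraries and had 0.73 and 0.55. PSMD14, the deubiquitinase that removes the ubiquitin chain at the entrance, was at 288 and 386 TPM in siControl cells and 295 and 350 TPM in siCTGF cells, and its log2 fold changes were 0.65 and 0.51.

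PSMD3 was at 234 and 285 TPM in siControl cells and at 225 and 310 TPM in siCTGF cells. Its log2 fold change was 0.51 (interval 0.47 to 0.56) in siControl cells and 0.72 (0.68 to 0.77) in siCTGF cells, a difference that has no replicate. The ubiquitin receptor PSMD4 (287 to 312 TPM) had 0.28 and 0.34. The scaffold subunits PSMD1 (134 to 167 TPM) and PSMD2 (403 to 518 TPM) had 0.40 and 0.29, and 0.51 and 0.38. The lid subunits PSMD6 (214 to 256 TPM) and PSMD8 (245 to 279 TPM) had 0.40 and 0.42, and 0.42 and 0.34. PSMD7, the partner of PSMD14 in the lid, did not pass, at 153 and 128 TPM in siControl cells and 155 and 116 TPM in siCTGF cells (log2 fold changes -0.03 and -0.15, adjusted p = 0.42). PSMD13 did not pass either, with 0.18 and 0.11 (adjusted p = 0.18).

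None of the 3 chaperones of 19S base assembly passed. The log2 fold changes were 0.29 and 0.20 for PSMD5 (adjusted p = 0.053), 0.07 and 0.09 for PSMD9 and -0.10 and -0.17 for PSMD10 (gankyrin). PSMD5 was at 54.1, 56.4, 54.2 and 52.1 TPM in untreated siControl, kahweol siControl, untreated siCTGF and kahweol siCTGF cells, and PSMD10 at 73.3, 58.5, 71.0 and 52.5 TPM. PSMD9 ran from 56.0 to 66.7 TPM.

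**Figure D3:**
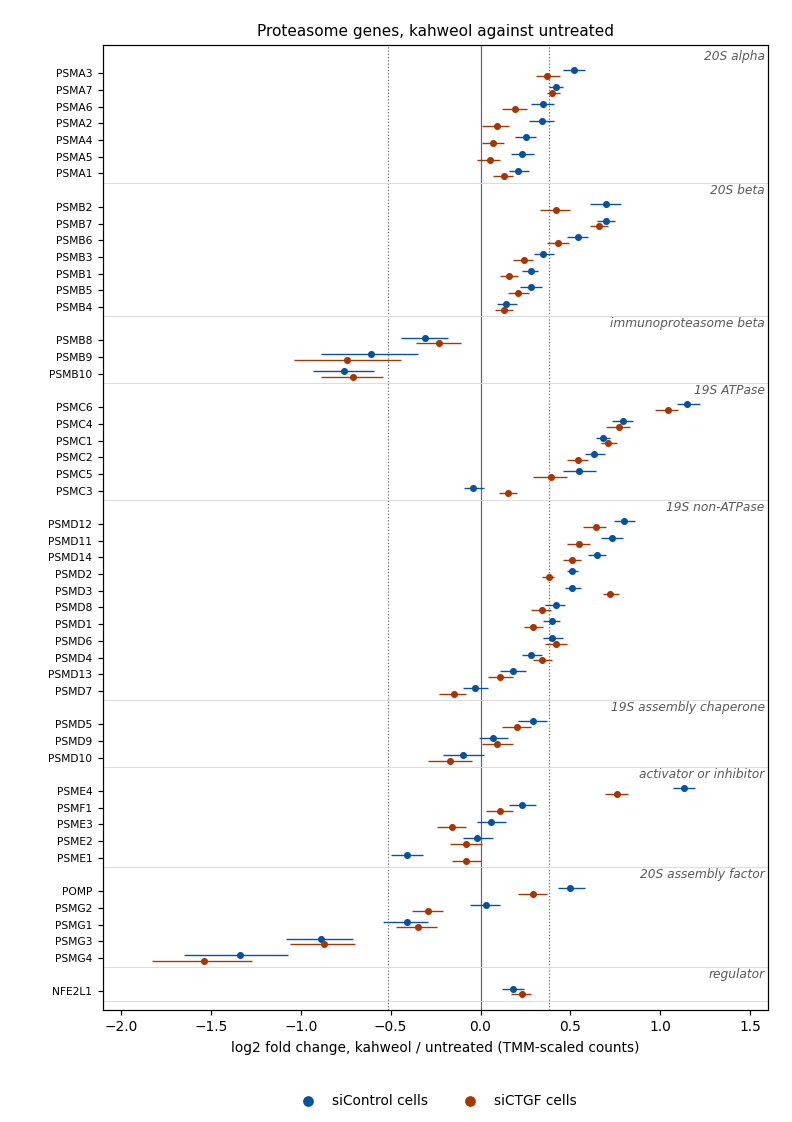
Log2 fold change with kahweol (horizontal axis, TMM-scaled counts) of each of the 48 measured proteasome genes, grouped by role, in siControl (blue) and siCTGF cells (orange). Points are single-library comparisons, bars are 95% counting intervals, and dotted lines mark folds of 0.7 and 1.3. PSMC6 lies furthest right, at 1.15 and 1.04, and the inducible beta subunits and PSMG1, PSMG3 and PSMG4 lie to the left of 0.

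The alternative activators did not move together. PSME4 (PA200), a nuclear activator linked to histone degradation and DNA repair, was at 32.0 TPM in untreated siControl cells, 59.8 with kahweol, 34.1 in untreated siCTGF cells and 48.1 with kahweol. It rose, with a log2 fold change of 1.13 (interval 1.07 to 1.19) in siControl cells and 0.76 (0.69 to 0.82) in siCTGF cells (adjusted p = 0.00029). The interferon-inducible PA28 subunits PSME1 and PSME2 did not pass. PSME1 was at 201, 129, 197 and 155 TPM. Its log2 fold change was -0.41 (-0.50 to -0.32) in siControl cells and -0.08 (-0.16 to 0.00) in siCTGF cells, at an adjusted p of 0.10. PSME2 was at 230, 194, 206 and 162 TPM, with log2 fold changes of -0.02 and -0.08 on counts (adjusted p = 0.70). PSME3 (PA28 gamma) had 0.06 and -0.16, and the inhibitor PSMF1 had 0.23 and 0.11, with neither passing.

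The assembly factors of the 20S core differed in direction. POMP, which brings the beta rings together and is degraded once the core is complete, rose, from 133 to 160 TPM in siControl cells and from 140 to 142 TPM in siCTGF cells. Its log2 fold changes were 0.50 (interval 0.43 to 0.58) and 0.29 (0.21 to 0.37) at an adjusted p of 0.011. The alpha-ring chaperones PSMG1, PSMG3 and PSMG4 fell.

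PSMG4 had the lowest change of all proteasome genes, at 25.9 TPM in untreated siControl cells, 5.48 with kahweol, 28.5 in untreated siCTGF cells and 7.99 with kahweol. Its counts were 946, 257, 969 and 273, and its log2 fold changes on counts were -1.34 (interval -1.65 to -1.07) and -1.54 (-1.83 to -1.27). The adjusted p was 0.00024. Its partner PSMG3 was at 47.0 and 21.7 TPM in siControl cells and 43.4 and 20.5 TPM in siCTGF cells. The log2 fold change of PSMG3 was -0.89 (-1.08 to -0.71) in siControl cells and -0.87 (-1.06 to -0.70) in siCTGF cells. Both treated libraries lay below both untreated ones for each of these genes. How many of all genes separate in this way was not counted, and 82.9% of all genes had the same sign with kahweol in both arms.

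PSMG1 ran from 42.6 to 72.4 TPM over the libraries and had -0.41 and -0.35 (adjusted p = 0.0091). Its partner PSMG2 did not pass, with 0.03 (interval -0.06 to 0.11) in siControl cells and -0.29 (-0.38 to -0.21) in siCTGF cells (adjusted p = 0.33). PSMG2 overlaps the opposite-strand gene CEP76, which had 43.2% of its count.

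NFE2L1, the transcription factor that controls proteasome genes, was at 75.5 TPM in untreated siControl cells, 73.1 with kahweol, 83.6 in untreated siCTGF cells and 81.5 with kahweol. Its log2 fold changes with kahweol on counts were 0.18 (interval 0.12 to 0.24) and 0.23 (0.17 to 0.28), and its adjusted p of 0.051 missed the threshold. With limma-voom it was among 27 genes called higher. On the TPM scale its change was -0.05 and -0.03, which is 0.13 and 0.14 above the median of all genes on that scale.

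The members of one complex were present at very different transcript levels. Median TPM over the libraries ran from 16.7 for PSMB9 and 16.9 for PSMG4 to 797 for PSMA7, and the median of the 48 genes was 151 TPM, against 9.98 over all genes. Within the constitutive 20S core, where each subunit is needed in equal number, levels ran from 36.7 TPM for PSMB2 and 77.0 for PSMA5 to 631 for PSMB1 and 797 for PSMA7. These levels depend on the transcript lengths assigned in the authors' processing. On TMM-scaled CPM, which is not adjusted for length, PSMB2 ran from 72.3 to 117 and PSMA7 from 352 to 486. The sum of the 48 genes on TPM was 9401 in untreated siControl cells, 10256 with kahweol, 9457 in untreated siCTGF cells and 9539 with kahweol. On TMM-scaled CPM the sums were 7047, 9351, 7303 and 9178. The 19S ATPases summed to 857, 1082, 858 and 1043 TPM and the 3 inducible beta subunits to 165, 98.9, 161 and 97.6 TPM.

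The log2 fold change with kahweol was lower in siCTGF than in siControl cells for 36 of the 48 genes, and for 8190 of all 16599 genes. Lower here covers a smaller rise as well as a deeper fall, as for PSMG4. The difference, siCTGF minus siControl, had a median of -0.10 over the 48 genes, against 0.00 over all genes. It was lowest for PSME4 (-0.38) and PSMG2 (-0.32) and highest for PSME1 (0.33), PSMD3 (0.21) and PSMC3 (0.19). With 1 library per condition this difference has no replicate and was not tested.

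To examine the knockdown of CTGF, siCTGF cells were compared with siControl cells within each treatment. In untreated cells no proteasome gene was over a fold of 1.3, against 9.63% of all genes, and none was under 0.7, against 8.99%. In kahweol-treated cells none was over 1.3, against 14.7% of all genes, and none was under 0.7, against 7.83%. Genes with few reads make up much of that background. Among the 9916 genes with a mean count at least that of PSMB9, 360 were over 1.3 and 139 under 0.7 in untreated cells, and 484 were over and 128 under in kahweol-treated cells.

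The fit over all 4 libraries called 0 proteasome genes higher with siCTGF, against 0.0663% of all genes, and 0 lower, against 0.0602%. At an unadjusted p under 0.05, edgeR's test gave 3 proteasome genes higher (NFE2L1, PSMC3 and PSMG1) and 0 lower, against 854 and 795 of all genes, or 5.14% and 4.79%. DESeq2 and limma-voom also called 0 at their adjusted thresholds. The median log2 fold change of the 48 genes was 0.06 in untreated and -0.05 in kahweol-treated cells.

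NFE2L1 had the lowest adjusted p for siCTGF among the members, 0.36, with log2 fold changes of 0.20 (interval 0.15 to 0.26) in untreated and 0.25 (0.19 to 0.31) in kahweol-treated cells. PSMC6 had 0.24 and 0.12, PSMG1 had 0.19 and 0.25, and PSMB8 had 0.15 and 0.22. PSMB9 had the lowest values in both treatments, -0.17 (interval -0.40 to 0.06) and -0.29 (-0.63 to 0.05). PSME1 had 0.02 in untreated and 0.36 (0.26 to 0.45) in kahweol-treated cells, and PSME4 had 0.15 and -0.23. Only 22 of the 48 genes had the same sign in both treatments, while 45 of 48 had the same sign with kahweol in both siRNA arms, against 82.9% of all genes for kahweol and 56.0% for siCTGF.

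**Figure D4:**
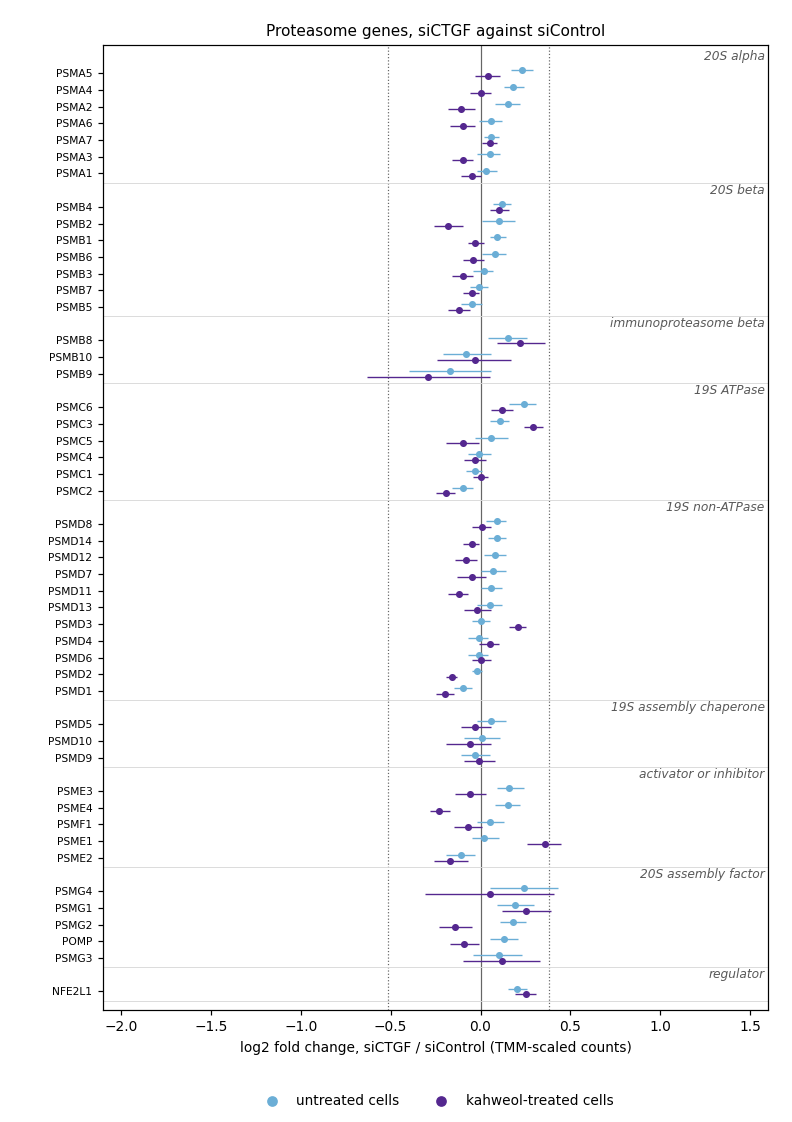
Log2 fold change with siCTGF (horizontal axis, TMM-scaled counts, same range as for kahweol) of each of the 48 measured proteasome genes, grouped by role, in untreated (light blue) and kahweol-treated cells (purple). Points are single-library comparisons, bars are 95% counting intervals, and dotted lines mark folds of 0.7 and 1.3. Every point lies between the dotted lines, from -0.29 for PSMB9 to 0.36 for PSME1.

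Genes that work with the proteasome were then examined as 6 lists, whose counts stand against 22.9% of all genes called higher and 23.7% called lower with kahweol. Among 19 measured partners of the proteasome, the fit called 11 higher and 2 lower with kahweol. The median log2 fold change was 0.33 in siControl cells and 0.31 in siCTGF cells. With TPM it was 0.13 and 0.01, which is 0.30 and 0.19 above the median of all genes on that scale. The arsenite-inducible ZFAND2A (AIRAP) had 1.85 and 2.04, ZFAND5, which stimulates the 26S proteasome, had 1.54 and 1.71, and PITHD1 had 1.22 and 1.42. AKIRIN2, which brings proteasomes into the nucleus with the importin IPO9, had 1.16 and 1.3, while IPO9 itself had -1.04 and -1.29. UCHL5, a deubiquitinase of the cap, had -0.08 and -0.35 (adjusted p = 0.11), while its receptor ADRM1 rose, from 247 to 410 TPM in siControl cells and from 235 to 383 TPM in siCTGF cells.

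Of 11 genes for the extraction, processing or degradation of NFE2L1, 10 rose and none fell with kahweol. Their median was 0.54 in siControl cells and 0.47 in siCTGF cells. With TPM it was 0.28 and 0.18, which is 0.45 and 0.36 above the median of all genes, and 2 and 3 of the 11 were below 0. VCP, the ATPase that pulls proteins out of the endoplasmic reticulum membrane, had 0.67 and 0.77. UFD1, a VCP cofactor, had 0.80 and 0.79, and the ubiquitin ligase SYVN1 had 0.79 and 1.01. FBXW7, a ligase subunit that marks nuclear NFE2L1 for degradation, had 0.80 and 1.11, and DDI2, the protease that activates NFE2L1, had 0.54 and 0.47. RHBDD1 did not pass (adjusted p = 0.74).

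Of 6 ubiquitin genes and E1 enzymes, 4 rose and 1 fell with kahweol, and the median was 0.53 in siControl and 0.33 in siCTGF cells. With TPM it was 0.31 and 0.08, which is 0.48 and 0.26 above the median of all genes. UBB, a polyubiquitin gene, was at 2009 and 2881 TPM in siControl cells and 1970 and 2697 TPM in siCTGF cells. Its log2 fold changes were 0.75 and 0.71. UBA6, the alternative E1 enzyme, fell, with -0.48 and -0.49.

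The antioxidant list around NFE2L2 (NRF2) and the heat shock list each had 14 of 16 measured genes higher with kahweol and none lower. Their medians were 1.10 and 1.07 for the first and 1.18 and 1.16 for the second, in siControl and siCTGF cells. With TPM they were 0.86 and 0.79, and 0.95 and 0.88. In the antioxidant list, HMOX1, the enzyme that breaks down heme, had 4.08 and 4.54, OSGIN1 had 2.42 and 2.49, and GCLM, a subunit of the enzyme that starts glutathione synthesis, had 1.71 and 1.67. In the heat shock list, DNAJB4 had 2.24 and 2.73, SQSTM1 (p62), a receptor for ubiquitinated cargo, had 2.07 and 2.22, and HSPA1B, an inducible HSP70 gene whose near-identical copy HSPA1A can share its reads, had 1.66 and 2.3. HSF1, the heat shock transcription factor, had -0.35 and -0.18 and did not pass (adjusted p = 0.059).

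The interferon and antigen processing list, to which PSMB8, PSMB9 and PSMB10 are functionally tied, had 8 of 18 genes higher and 4 lower with kahweol, and 4 of 18 is close to the 23.7% of all genes called lower. Its median was 0.16 in siControl and 0.25 in siCTGF cells. With TPM it was below 0 (-0.06 and -0.01), though 0.11 and 0.17 above the median of all genes on that scale. HLA-E, an MHC class I gene, had 0.59 and 0.65, IRF1, an interferon regulatory factor, had 0.56 and 0.83, and B2M, the light chain of MHC class I, had 0.57 and 0.47. Those that fell included the MHC transactivators NLRC5 (-0.52 and -0.57) and CIITA (-2.44 and -1.17, at most 1.44 TPM). TAP1, which lies beside PSMB9, had 0.12 and 0.19 and did not pass (adjusted p = 0.21). With siCTGF the fit called 0 genes in any of the 6 lists, against 0.0663% of all genes higher and 0.0602% lower. The list with the most genes over 1.3 with siCTGF was the antioxidant list. It had 3 of 16 in kahweol-treated cells, against 14.7% of all genes, and 1 of 16 in untreated cells, against 9.63%.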

How the data were processed

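RNA-Seq of 4 MDA-MB-231 libraries was analysed from the tables deposited by the authors. The submitters' processing notes name FastQC 0.11.7 and Trimmomatic 0.38 for the reads, HISAT2 2.1.0 and Bowtie2 2.3.4.1 for alignment, GRCh37.p13 as the genome and StringTie 2.1.3b for assembly. The read counts per gene deposited by the authors are whole numbers without normalization. FPKM and TPM were computed by the authors with StringTie, and the deposited coverage (signal) is the mean depth per base. FPKM and coverage were not used for any result given here. How multi-mapping and opposite-strand reads were counted is not given in the sources used here.

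Groups came from the sample labels. The minimum mean count was 10. Counts were scaled with TMM in edgeR 4.0.16 (R 4.3.3), and log2 CPM took a prior count of 2. Fold thresholds of 1.3 and 0.7 followed the study. Counting intervals (95%) are by Clopper-Pearson, with 2 reads taken as 1 fragment. The fit used edgeR's quasi-likelihood test with terms for kahweol and siRNA and Benjamini-Hochberg adjustment over all genes kept. It was also run on simulated counts drawn with its own dispersion estimates. Such counts cannot test how the fit handles the unmeasured variation between cultures. DESeq2 1.42.0 and limma-voom (limma 3.58.1) were alternatives. Tables and figures were made in Python 3.11.15 with pandas 2.3.3 and numpy 2.4.6. Promoters came from RefSeq (GRCh38.p14) and were joined by gene identifier, with no conversion of coordinates.

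The members, the 6 lists and the motifs were chosen with earlier results of these data known. Values in every library are given for the catalytic pairs, POMP, NFE2L1, PSME1 and PSME2 and for the members of each role group that were highest and lowest with kahweol, ranked by the smaller of the changes of the same sign in both comparisons. The other members past the same threshold in both comparisons or called by the fit are given by their range. In the other lists, up to 3 genes per direction with a mean count of 50 or more were named by that ranking. PSMA4, PSMD4, PSMD13, PSMD9, PSME3, PSMF1, PSMG2, AKIRIN2, ADRM1, VCP, DDI2, RHBDD1 and TAP1 were chosen after their values were seen. The results of some genes of these lists are not reported here.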

Additional observations from a re-analysis of the deposited data

How the results depend on the processing

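With total-count scaling, the median log2 fold change of the 48 proteasome genes with kahweol was 0.15 in siControl and 0.05 in siCTGF cells, and 9 genes were over 1.3 in siCTGF cells. With log2(TPM + 1), the median with kahweol was 0.06 in siControl cells, with 10 genes over 1.3 and 7 under 0.7, and -0.05 in siCTGF cells, with 6 over and 7 under. With log2(TPM + 1), the median with siCTGF was 0.00 in untreated cells, with 1 gene over 1.3 (PSMA4), and -0.13 in kahweol-treated cells, with 1 gene over 1.3 (PSMG4). The cause was not tested. Among the other 79 values under alternatives, counts stayed within 1.5 times the main count. The medians among them kept their sign and lay closer to the main value than those given above.

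The number of proteasome genes called higher with kahweol ran from 22 (no filter on low counts) to 27 (limma-voom), and the number called lower was 5 or 6. With siCTGF it was 0 in every fit. Over all genes, the siCTGF calls higher and lower were 11 and 10 with edgeR, 69 and 62 with DESeq2, 33 and 28 with limma-voom, 35 and 40 with edgeR under DESeq2 size factors, 10 and 13 without a filter, and 0 and 0 without a kahweol term.

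Leaving out a library was not run, because 3 libraries leave the fit no residual degree of freedom. The labels give no replicate numbers. The siRNA term pairs the kahweol libraries by siRNA arm, and without it 23 proteasome genes were called higher and 5 lower. Counting error at this depth is a median of 0.06 on either side of the log2 fold change, and the variation between cultures is unmeasured.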
